A study of Mus musculus with 10 samples.

Results

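Mitochondrial ribosomal protein genes were followed in Lin− bone marrow cells, the fraction left after cells carrying surface markers of mature blood lineages are removed. The members were all protein-coding genes whose symbol starts with Mrpl (large subunit) or Mrps (small subunit) followed by a digit. The table holds 78 such genes, 49 of the large and 29 of the small subunit, among 55359 genes. All 78 passed the filter on low values, a mean of at least 0.1 FPKM, which 18742 genes passed. FPKM counts sequenced fragments, scaled to the length of the gene and the number mapped in the library.

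RNA was sequenced from 5 Dhx9f/f mice (WT), which carry floxed Dhx9 alleles without Cre, and 5 Dhx9f/f;MX1 mice (cKO). The cKO mice carry the same alleles with Cre driven by the Mx1 promoter, which responds to interferon and is switched on with poly(I:C), a synthetic double-stranded RNA. Per the methods, mice were taken about a week after the first dose. The sources used here do not say whether poly(I:C) was also given to the WT mice sequenced, so an effect of poly(I:C) cannot be told apart from that of the genotype. The age and sex of the mice are not given in the labels. The comparison asks how the transcriptome of Lin− cells differs between genotypes, here for the protein parts of the mitochondrial ribosome.

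The mitochondrial ribosome translates the few mRNAs encoded by the mitochondrial genome, all of which specify subunits of the respiratory chain and ATP synthase. Its ribosomal RNAs are made inside the mitochondrion, while its proteins are encoded by nuclear genes, translated in the cytosol and imported. Many of these proteins have a counterpart in the bacterial ribosome and the others were added during the evolution of mitochondria. Developing red cells use mitochondria for heme synthesis before they lose them.

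Library depth, read from the steps of low FPKM values, was 13790000 to 17170000 fragments in the cKO libraries and 15070000 to 18820000 in the WT libraries. Dhx9, the targeted gene, went against the labels. It was at 130.82 to 156.49 FPKM in the libraries labelled cKO and 65.43 to 72.42 FPKM in those labelled WT, a log2 fold change of 1.0. The part of the gene that the reads cover was not examined, and groups are called by their labels throughout, so each direction below rests on these labels. Xist, transcribed from the inactive X chromosome of females, was above 1 FPKM in 3 WT libraries (replicates 3, 4 and 5) and in 0 cKO libraries. In a bulk sample, fewer cells of a type and less RNA per cell cannot be told apart.

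The start regions of 4 members are shown, picked for their fold change or for a shared start. Mrpl52 had the highest fold change of the members and Mrps16 the highest of the small subunit. Mrpl33 had the lowest fold change, and Mrps11 shares its start region with a gene of the large subunit, Mrpl46. Each run covers 150 bases before to 30 bases after the annotated start, 5′ to 3′ on the strand of the gene, from the GRCm39 genome with GENCODE M39 starts. Capitals mark exact matches, on either strand, to motifs of known factors: GCATGCGC for NRF1, CCGGAAGT for ETS factors, AAGATGGC for YY1 and GGGCGG for SP factors. The letters CACGTG, read as an E-box, and TATAAA, read as a TATA box, were searched as well and had no match in these runs. Matches to different motifs were counted where they overlapped.
Mrpl52 at chr14:54664210-54664389, plus strand: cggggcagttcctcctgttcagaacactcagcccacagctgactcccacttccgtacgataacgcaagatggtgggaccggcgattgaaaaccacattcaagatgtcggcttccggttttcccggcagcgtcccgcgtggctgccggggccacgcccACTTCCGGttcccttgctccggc
Mrps16 at chr14:20443684-20443863, minus strand: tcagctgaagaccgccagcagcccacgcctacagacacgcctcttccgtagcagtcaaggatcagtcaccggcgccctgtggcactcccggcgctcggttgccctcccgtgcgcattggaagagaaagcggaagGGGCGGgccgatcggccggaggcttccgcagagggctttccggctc
Mrps11 at chr7:78432717-78432896, plus strand: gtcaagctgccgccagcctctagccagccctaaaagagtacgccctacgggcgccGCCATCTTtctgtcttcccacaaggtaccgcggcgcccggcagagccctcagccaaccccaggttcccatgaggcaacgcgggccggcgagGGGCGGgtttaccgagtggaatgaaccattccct
Mrpl33 at chr5:31771133-31771312, plus strand: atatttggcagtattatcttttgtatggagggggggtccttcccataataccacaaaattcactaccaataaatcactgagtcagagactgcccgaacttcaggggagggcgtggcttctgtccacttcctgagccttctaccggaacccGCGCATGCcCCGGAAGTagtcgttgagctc

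Mrpl52 held an ETS match starting at base 8 of its transcript, on the reverse strand. Mrpl33 held an NRF1 match at base 1 and an ETS match at base 10, so a gene lower in cKO cells carried matches of the same kind as the gene with the highest fold change. The start used for Mrpl33 is that of its canonical transcript, inside the annotated gene. Mrps16 held an SP match 16 bases before its start. Mrps11 held a YY1 match on the reverse strand 95 bases before its start and an SP match 4 bases before it. These matches are letters found in a window and were not tested as binding sites.

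Over windows of 300 bases (250 before to 50 after the start), the ETS motif was present in 11 of 78 members, or 14.1%, against 6.62% of the promoters of 12877 protein-coding genes tested. The NRF1 motif was present in 7 members (8.97% against 4.85%) and the YY1 motif in 6 (7.69% against 3.46%). The SP motif was less frequent in members, with 33 of 78 (42.3%) against 56.3%. E-boxes were present in 5 members (6.41% against 9.88%) and a TATA box in 8 (10.3% against 8.52%). In the 250 bases before the start alone, the ETS motif was present in 6 members (7.69% against 3.84%), NRF1 in 4 (5.13% against 3.34%) and YY1 in 3 (3.85% against 1.82%). GC content of the windows was alike, with a median of 57.5% in members and 57.7% in all promoters. In the windows of 300 bases, the median log2 fold change was 0.27 for members with an ETS match and 0.28 for those without, and 0.28 with and 0.28 without an NRF1 match. It was 0.16 with and 0.28 without a YY1 match, 0.31 and 0.28 for SP, 0.28 and 0.28 for the E-box and 0.36 and 0.28 for the TATA box. In the 250 bases before the start it was 0.15 with and 0.29 without an ETS match and 0.40 with and 0.28 without an NRF1 match. These medians rest on few members and were not tested.

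The members were higher in cKO cells by a small and broad margin. Their median log2 fold change, on the log2(FPKM + 0.1) scale, was 0.28, with the middle of the distribution (quartiles) from 0.10 to 0.45 and single genes from −0.76 to 1.21. Of 78 members, 66 were above 0, against 43.7% of all genes tested, whose median was −0.11. At an adjusted p under 0.05 (limma, Benjamini-Hochberg over all genes tested), 39 members rose, 3 fell and 36 did not pass. The background was 16.7% of genes higher and 28.3% lower. With a fold change of at least 2 added, 1 member (Mrpl52) was called higher and 0 lower, where the background was 4.6% and 16.8%. With a covariate for Xist above 1 FPKM, the median was 0.37, 30 members rose and 1 (Mrpl33) fell. With it, 10.9% of all genes were higher and 21.5% lower. As no cKO library was above 1 FPKM, these fold changes compare the cKO libraries with WT 1 and WT 2 only. WT 1 was the lowest WT library in 57 of 78 members.

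**Figure D1:**
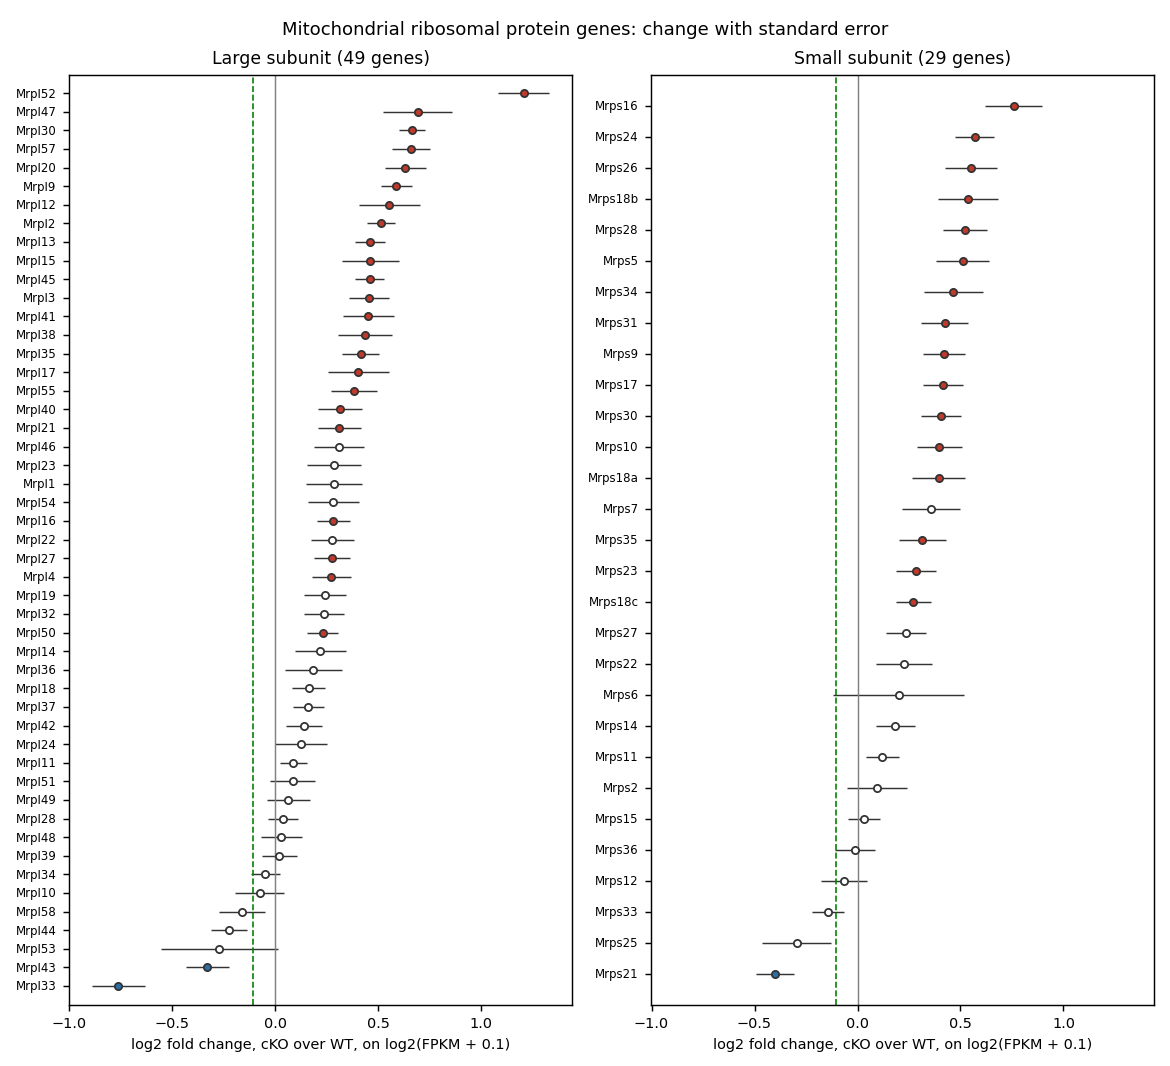
Log2 fold change, cKO over WT, with its standard error for each member, large subunit at left and small subunit at right. Filled points passed an adjusted p of 0.05 (red higher, blue lower), the green dashed line is the median of all genes tested (−0.11), and most points lie to the right of it, from −0.76 for Mrpl33 to 1.21 for Mrpl52.

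The groups separated for fewer genes than were called. All 5 cKO libraries lay above all 5 WT libraries for 18 members, 11 large and 7 small, where the background was 10.6% of genes. All 5 lay below for 2 members, Mrpl33 and Mrps21, where the background was 21.6%. cKO 1 was the lowest cKO library in 55 of 78 members. Without it, the other cKO libraries lay above all WT libraries for 41 members, 25 large and 16 small, with a background of 15.7%.

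Libraries differed as wholes. The median deviation of the members from their WT mean, on the log2 scale, was 0.05, 0.35, 0.45, 0.28 and 0.32 in cKO 1 to 5. It was −0.15, 0.01, 0.18, 0.01 and −0.04 in WT 1 to 5, so cKO 1 lay below WT 3. WT 3 was the highest WT library in 62 members and WT 1 the lowest in 57. Members above their WT mean numbered 46 in cKO 1 and 64 to 71 in the other cKO libraries.

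**Figure D2:**
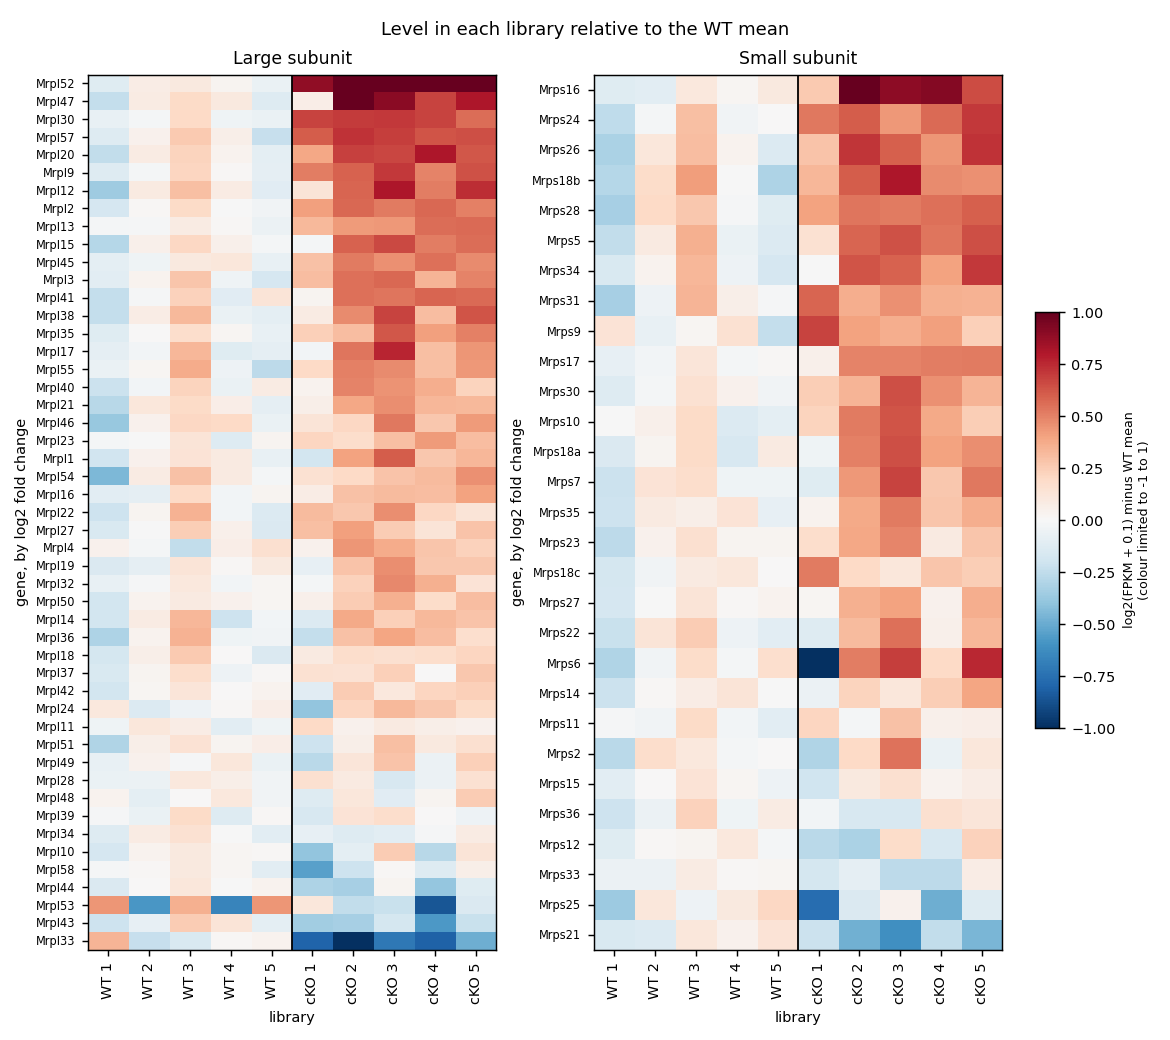
Level of each member (rows, ordered by log2 fold change) in each library (columns) as log2(FPKM + 0.1) minus the WT mean, with colour limited to −1 to 1. Red is above and blue below the WT mean: cKO 2 to 5 are mostly red, cKO 1 is paler (46 of 78 above the WT mean), WT 1 is mostly blue and WT 3 mostly red.

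Both subunits had positive medians. The median log2 fold change was 0.28 for the large subunit and 0.31 for the small, a difference of −0.04, where the standard deviation of that difference between single libraries of a group was 0.05. The difference depended on the processing: it was −0.13 under quantile normalization (0.30 for the large and 0.42 for the small subunit) and −0.14 among members without an exon overlap. Of the large subunit, 42 of 49 genes were above 0, 23 rose and 2 fell. Of the small subunit, 24 of 29 were above 0, 16 rose and 1 fell. Among all genes tested, 43.7% were above 0, 16.7% rose and 28.3% fell. Structures place the proteins of Mrps18a and Mrps30 in the large subunit, and with them moved the medians were 0.28 over 51 genes and 0.30 over 26, the latter without Mrps36, which is also counted with the 2-oxoglutarate dehydrogenase complex.

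Members were also divided by whether the protein is classed as having a bacterial counterpart. Mrps18a and Mrps18b, of the S18 family, were classed as without one. In the large subunit by structure, 30 genes with a bacterial counterpart had a median log2 fold change of 0.28 (16 rose, 1 fell) and 21 without had 0.23 (9 rose, 1 fell). In the small subunit, 16 with a counterpart had 0.31 (8 rose, 1 fell) and 10 without had 0.30 (6 rose, 0 fell). Among all genes tested, 16.7% rose and 28.3% fell.

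In summed FPKM, the members reached 2075 ± 146 (SD, n = 5) in cKO and 1697 ± 151 in WT libraries. The ranges overlapped, from 1823.77 to 2197.35 and from 1502.31 to 1921.31, because cKO 1 lay below WT 3. The members made up 0.583% to 0.702% of all FPKM in cKO and 0.497% to 0.623% in WT libraries. The large subunit summed to 1422 ± 109 in cKO and 1145 ± 102 in WT, and the small to 653 ± 39.3 and 552 ± 48.96. The ratio of large to small was 2.08, 2.19, 2.19, 2.27 and 2.15 in cKO 1 to 5 and 2.11, 2.08, 2.10, 2.06 and 2.03 in WT 1 to 5. This ratio was higher in cKO 2 to 5 than in any WT library. With Mrpl52, the third most abundant member, left out it ran from 1.96 to 2.07 in cKO and from 1.95 to 2.04 in WT libraries.

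**Figure D3:**
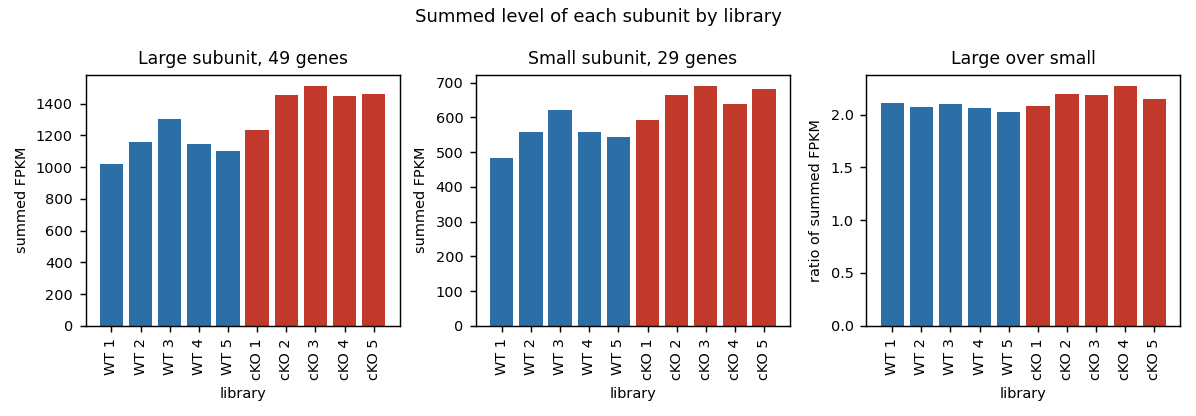
Summed FPKM of the 49 large-subunit genes, of the 29 small-subunit genes and their ratio in each library, WT in blue and cKO in red, with bars from 0. Both sums are lowest in WT 1 (1019.98 and 482.33), and the ratio stays between 2.03 and 2.27.

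Levels spanned a wide range. Mean FPKM over all libraries ran from 1.57 to 86.3 with a median of 18.9, and 68 of 78 members lay between 5 and 50 FPKM. The 5 highest were Mrpl18, Mrpl12, Mrpl52, Mrpl34 and Mrps21, and the 5 lowest Mrpl23, Mrpl53, Mrpl48, Mrps35 and Mrps25. Mrpl18, whose protein binds 5S-type RNA in other ribosomes, was at 86.52, 91.83, 90.65, 91.60 and 94.00 FPKM in cKO 1 to 5 and 71.75, 84.33, 97.39, 81.32 and 73.57 in WT 1 to 5. The groups overlapped through WT 3, and the log2 fold change of 0.16 did not pass (adjusted p = 0.123, limma), although it passed without WT 3 (0.23, adjusted p = 0.0138) and under median-ratio scaling (0.27, adjusted p = 0.0256).

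Mrpl52 encodes a large-subunit protein without a bacterial counterpart (ENSMUSG00000010406, chromosome 14 of GRCm39, 54664360 to 54668593, plus strand). It was at 74.99, 100.87, 89.11, 126.58 and 83.60 FPKM in cKO 1 to 5 and at 37.08, 42.47, 43.16, 41.25 and 38.55 FPKM in WT 1 to 5. The lowest cKO library was above the highest WT library. The log2 fold change was 1.21 ± 0.12 (SE; adjusted p = 7.8e-05, limma). Its annotated exons share 465 bp with Gm62879, and whether the counting used strand is not given in the sources used here.

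Mrpl30, a large-subunit protein with a bacterial counterpart (chromosome 1, 37929558 to 37939816, plus strand), varied little within each group. It was at 38.86, 39.56, 39.79, 38.99 and 35.93 FPKM in cKO 1 to 5 and at 23.09, 24.02, 27.89, 23.64 and 23.27 in WT 1 to 5. The groups did not overlap, and the log2 fold change was 0.66 ± 0.06 (SE; adjusted p = 6.6e-05, limma). No annotated exon of another gene overlaps it.

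Mrpl57 and Mrpl47 followed in the large subunit. Mrpl57, added in mitochondria, was at 17.55 to 19.11 FPKM in cKO and 9.78 to 13.85 in WT libraries, a log2 fold change of 0.66 ± 0.09 (SE; adjusted p = 2.7e-04, limma), with no overlap of the groups. Mrpl47, the counterpart of bacterial L29, was at 6.98, 13.39, 12.53, 10.70 and 11.71 FPKM in cKO 1 to 5 and at 5.62, 7.04, 7.60, 7.11 and 6.08 in WT 1 to 5. cKO 1 lay within the WT range and the other cKO libraries above it. Its log2 fold change was 0.69 ± 0.17 (SE; adjusted p = 0.0063, limma), and the adjusted p was 0.0597 when only libraries with Xist at or below 1 FPKM entered.

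Mrps16, the counterpart of bacterial S16 (chromosome 14, 20439372 to 20443713, minus strand), had the highest fold change of the small subunit. It was at 13.95, 24.52, 21.74, 22.11 and 18.31 FPKM in cKO 1 to 5 and at 10.67, 10.82, 12.55, 11.79 and 12.46 in WT 1 to 5. All cKO libraries were above all WT libraries, cKO 1 by the least. The log2 fold change was 0.76 ± 0.14 (SE; adjusted p = 0.0012, limma), and no exon of another gene overlaps it.

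**Figure D4:**
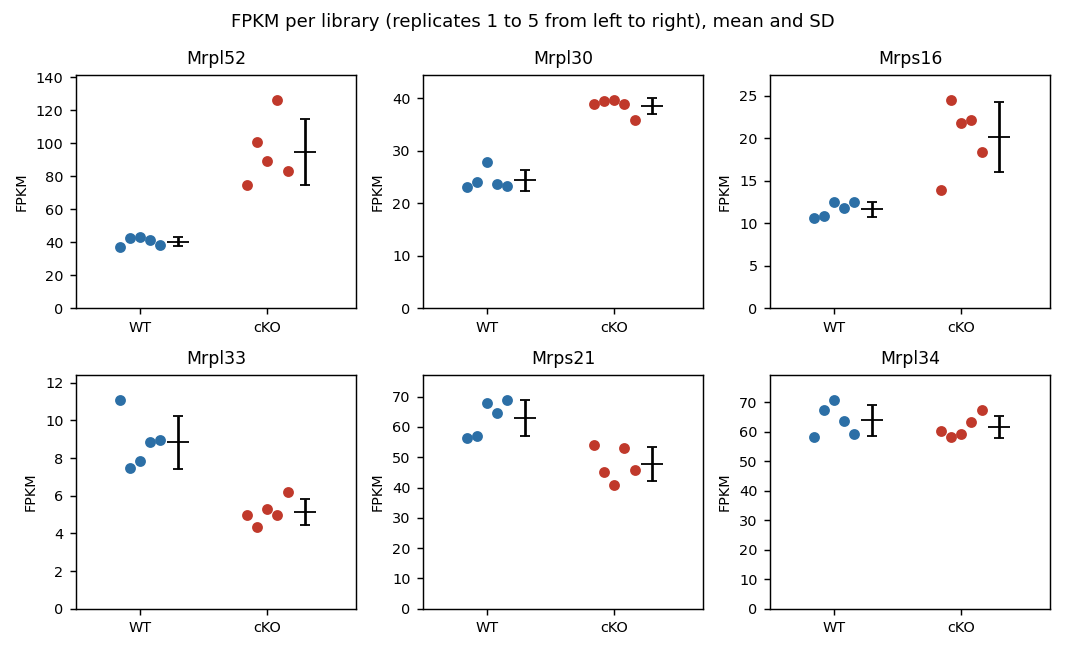
FPKM of 6 members in each library, WT in blue and cKO in red, replicates 1 to 5 from left to right, with the mean and SD beside the points. Mrpl52, Mrpl30 and Mrps16 are higher in every cKO library, Mrpl33 and Mrps21 lower in every cKO library, and Mrpl34 overlaps (58.36 to 67.27 FPKM in cKO, 58.15 to 70.86 in WT).

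The 3 members that fell were Mrpl33, Mrps21 and Mrpl43. Mrpl33, the counterpart of bacterial L33 (chromosome 5, 31754279 to 31837542, plus strand), was at 4.98, 4.33, 5.31, 4.96 and 6.22 FPKM in cKO 1 to 5 and at 11.09, 7.45, 7.87, 8.86 and 8.97 in WT 1 to 5. The groups did not overlap, and the log2 fold change was −0.76 ± 0.13 (SE; adjusted p = 7.65e-04, limma). Its exons share 835 bp with annotated neighbours, Rbks among them, and reads of overlapping genes cannot be told apart without strand.

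Mrps21, the counterpart of bacterial S21, was at 53.97, 45.03, 40.89, 53.02 and 45.73 FPKM in cKO 1 to 5 and at 56.29, 56.96, 67.92, 64.73 and 68.92 in WT 1 to 5. The groups did not overlap, although cKO 1 and WT 1 were close. The log2 fold change was −0.40 ± 0.09 (SE; adjusted p = 0.0050, limma), and the call was lost with a covariate for Xist (adjusted p = 0.101). Among its neighbours in the annotation, C920021L13Rik and Gm26594 share exon sequence with it.

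Mrpl43, a large-subunit protein without a bacterial counterpart, was at 15.07, 15.19, 16.97, 12.87 and 16.45 FPKM in cKO 1 to 5 and at 16.63, 18.13, 22.85, 21.03 and 17.98 in WT 1 to 5. cKO 3 lay just above WT 1. The log2 fold change was −0.33 ± 0.10 (SE; adjusted p = 0.0237, limma). This call rested on single libraries, since the adjusted p was 0.0507 without WT 3, 0.0613 without WT 4 and 0.0554 without cKO 4. With a covariate for Xist it was 0.295, and under median-ratio scaling 0.0995. Its exons overlap Sema4g and Twnk, and Twnk, which encodes the mitochondrial DNA helicase and starts 56 bp away on the other strand, had a log2 fold change of 0.33 (adjusted p = 0.152). Mrps25 (−0.30, adjusted p = 0.175) and Mrpl53 (−0.27, adjusted p = 0.470) completed the 5 lowest fold changes and did not pass.

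The 3 members that fell have exons overlapping other genes, as do 60 of all 78 members, and the part of such overlaps in these values was not tested. Among the 18 members without such an overlap, a split made after the data were seen, the median log2 fold change was 0.36, 17 were above 0, 12 rose and 0 fell. Among the 60 with an overlap the median was 0.27, with 27 that rose and 3 that fell. The background was 16.7% of genes higher and 28.3% lower.

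In the stalk of the large subunit, which recruits translation factors, the members differed. Mrpl12, the stalk protein that also binds the mitochondrial RNA polymerase, was at 61.27, 83.76, 98.30, 80.05 and 93.77 FPKM in cKO 1 to 5 and at 43.69, 59.71, 69.24, 59.17 and 51.73 in WT 1 to 5. The log2 fold change was 0.55 ± 0.15 (SE; adjusted p = 0.0098, limma), with cKO 1 inside the WT range. Mrpl10, which anchors Mrpl12 to the ribosome, was at 27.9 ± 5.24 FPKM (SD, n = 5) in cKO and 29.03 ± 1.92 in WT, a log2 fold change of −0.08 that did not pass. Mrpl11, at the stalk base, had 0.09 and passed only under median-ratio scaling (adjusted p = 0.0401). Mrpl1, of the mobile L1 stalk on the other side of the subunit, had 0.28 (adjusted p = 0.110). Mrpl1 passed without cKO 1 (0.40, adjusted p = 0.0057), with the replicate number as a block (0.0459) and under median-ratio (0.0327) and quantile scaling (0.0172).

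Around the exit of the peptide tunnel and the catalytic core, Mrpl45 and Mrpl3 rose. Mrpl45, which ties the ribosome to the inner membrane, was at 22.80 to 27.32 FPKM in cKO and 17.37 to 20.16 in WT libraries, without overlap, a log2 fold change of 0.46 (adjusted p = 4.8e-04, limma). Mrpl3, near the peptidyl transferase centre, was at 15.15 to 18.18 FPKM in cKO and 10.82 to 14.84 in WT libraries, also 0.46 (adjusted p = 0.0029). Mrpl44, related to double-strand RNA nucleases, was at −0.22 (adjusted p = 0.0592). It passed as lower without WT 1 (adjusted p = 0.0444), without cKO 3 (0.0130), with the replicate number as a block (0.0332), with equal sums (0.0319) and under quantile normalization (0.0263). Mrpl58, a peptidyl-tRNA hydrolase built into the ribosome, was at −0.16 and did not pass.

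The S18 family has 3 members in mammals, which encode homologs of the same bacterial protein. In the split by bacterial counterpart above, Mrps18c was counted with one, and Mrps18a and Mrps18b were counted without. Mrps18b was at 21.00, 25.34, 29.29, 23.12 and 22.91 FPKM in cKO 1 to 5 and at 13.65, 18.94, 22.26, 16.60 and 13.43 in WT 1 to 5. WT 3 lay above cKO 1, and the log2 fold change was 0.53 (adjusted p = 0.0117, limma). Mrps18c was the most abundant, at 54.5 ± 6.09 FPKM (SD, n = 5) in cKO and 45.1 ± 3.55 in WT, with 0.27 (adjusted p = 0.0228). Mrps18a was at 11.1 ± 1.84 and 8.35 ± 0.892 FPKM, with 0.39 (adjusted p = 0.0279). Both calls were lost under some alternatives. Mrps18c gave an adjusted p of 0.0545 without WT 1, 0.0638 with the replicate number as a block, 0.0534 without the trend, 0.0886 under quantile normalization and 0.0525 in the libraries with low Xist. The adjusted p of Mrps18a was 0.0522 to 0.0693 when any of WT 1, WT 4 and cKO 2, 3, 4 or 5 was left out. With the covariate for Xist the adjusted p was 0.0503 for Mrps18b and 0.0775 for Mrps18a.

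Other small-subunit members with known roles were mixed. Mrps34, needed for stability of the small subunit, had a log2 fold change of 0.46 (adjusted p = 0.0211, limma), which was lost without WT 1, WT 5 or cKO 2 (0.0507 to 0.0539) and with the covariate for Xist (0.0685). Mrps30, placed in the large subunit by structures, was at 6.89 to 9.12 FPKM in cKO and 5.29 to 6.47 in WT libraries, without overlap, a log2 fold change of 0.40 (adjusted p = 0.0056). Mrps27, of the pentatricopeptide repeat family, was at 0.24 (adjusted p = 0.0660) and passed without cKO 1 (0.0210) or cKO 4 (0.0373), with the replicate number as a block (0.0332) and under median-ratio scaling (0.0117). Mrps22 was at 0.23 (adjusted p = 0.202), Mrps12, of the decoding centre, at −0.07 (adjusted p = 0.668), and Mrps36 at −0.01 (adjusted p = 0.924).

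Some members were covered by few fragments. From annotated lengths, Mrpl53 was covered by about 36 to 104 fragments per library, Mrpl23 by 108 to 144 and Mrps6 by 129 to 568, and the other members by at least 308. Mrpl23 was nonetheless separated between groups, at 1.60 to 1.92 FPKM in cKO and 1.27 to 1.54 in WT libraries. Its log2 fold change of 0.29 did not pass (adjusted p = 0.102, limma). Mrpl23 passed under median-ratio scaling, without the trend and under quantile normalization, with an adjusted p down to 0.0014. Its processed pseudogene Mrpl23-ps1 was listed at a mean of 5.08 FPKM, above Mrpl23 itself at 1.57, so the level of Mrpl23 is uncertain. Mrpl48, whose pseudogene Mrpl48-ps was at 4.89 FPKM, had a log2 fold change of 0.03 and passed only under quantile normalization (adjusted p = 0.020). Mrps35 (0.31, adjusted p = 0.0433) lost its call when any of WT 1, 2, 3 and 5 and cKO 2 to 5 was left out, with adjusted p from 0.0564 to 0.0990.

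Spread within groups was small for most members. The coefficient of variation had a median of 10.3% in WT and 11.6% in cKO libraries. It was highest for Mrpl53 in WT (37.2%) and for Mrps6 in cKO (40.1%). Mrps6 was at 2.92 FPKM in cKO 1 and 7.60 to 11.23 in the other cKO libraries, against 5.36 to 7.55 in WT, so its log2 fold change of 0.20 did not pass (adjusted p = 0.643, limma).

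The members shared features of gene structure. They lay on 17 chromosomes, with 11 on chromosome 11, and 0 on the X. Their coding sequences were short, with a median of 582 bp against 1335 bp for protein-coding genes tested, and were alike in both subunits (576 and 588 bp). A gene starting within 1000 bp on the opposite strand, pointing away, was present for 14 members (17.9%) and for 982 of 12877 protein-coding genes tested (7.63%). Mrps11 and Mrpl46 form such a pair of members, with starts 30 bp apart, and had log2 fold changes of 0.12 (adjusted p = 0.255) and 0.31 (adjusted p = 0.0584). Partners of other members went either way. Tmem63b, next to Mrpl14, rose (0.83, adjusted p = 4.2e-04, limma), as did Psma2, next to Mrpl32 (0.31, adjusted p = 0.0019), and Fau, next to Mrpl49 (0.45, adjusted p = 0.0056). These 3 neighbouring members did not pass. Pnpla7, next to Mrpl41, fell (−1.10, adjusted p = 0.0043) although Mrpl41 itself rose (0.45, adjusted p = 0.0118). Zfp189, next to Mrpl50, also fell (−0.80, adjusted p = 0.0011), and Mrpl50 rose (0.23, adjusted p = 0.0265).

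The parts of the mitoribosome outside the symbol rule differed by molecule. The 5 proteins with other symbols (Dap3, Ptcd3, Aurkaip1, Chchd1 and Gadd45gip1) were all above 0, with a median log2 fold change of 0.39. Of these, 4 of 5 rose, against 16.7% of all genes tested. Both mitochondrial ribosomal RNAs were lower in cKO cells. The 12S RNA gene mt-Rnr1 was at 166 ± 69.8 FPKM (SD, n = 5) in cKO and 390 ± 69.5 in WT, a log2 fold change of −1.32 (adjusted p = 0.0020, limma). The 16S RNA gene mt-Rnr2 was at 138 ± 26.3 and 249 ± 64.9 FPKM, −0.84 (adjusted p = 0.0030). Neither overlapped between groups, so the RNAs and the median of the proteins of the same particle lay on opposite sides of 0. How libraries were depleted of ribosomal RNA or selected for poly(A) is not given in the sources used here, and its part in these values was not tested.

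Other lists around the mitoribosome are given by their own counts, with no test between lists. Of all genes tested, 16.7% were higher and 28.3% lower. Of 25 assembly factors 7 rose and 0 fell, with a median of 0.13. Among them were the GTPases Gtpbp10 (0.88) and Mtg1 (0.63), both of which assist maturation of the large subunit. Of 14 translation factors 2 rose (14.3%, below the share of all genes) and 1 fell, with a median of 0.08. The elongation factor Gfm1 had 0.70, the membrane insertase Oxa1l 0.18 and the release factor Mtrf1l −0.59. Of 15 genes of mitochondrial transcription and mRNA stability 7 rose and 0 fell, with a median of 0.26, and Supv3l1, the RNA helicase of the degradosome, led with 0.82, followed by Tbrg4 with 0.70. Of 85 cytosolic ribosomal protein genes tested 24 rose and 0 fell, with a median of 0.15.

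**Figure D5:**
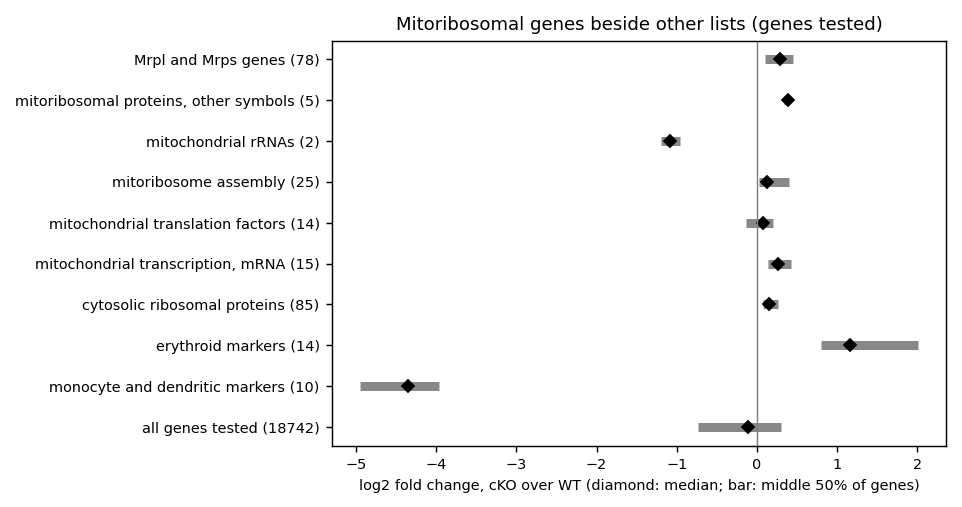
Median log2 fold change (diamond) and middle 50% of genes (bar), cKO over WT, for the members and for other gene lists, with the number of genes tested in parentheses. The members (0.28) and the mitoribosomal proteins with other symbols (0.39) lie right of 0, the 2 mitochondrial ribosomal RNAs (−1.32 and −0.84) left of it, and the erythroid (1.16) and monocyte and dendritic cell markers (−4.35) lie farther out.

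Markers of blood lineages moved with the genotype. All 14 measured erythroid markers rose (median 1.16), where the background was 16.7% of genes. With a fold change of at least 2, 7 of them rose, against 4.6% of genes. Their summed level was 5100 to 8470 FPKM in cKO and 1766 to 3134 in WT libraries. The 10 monocyte and dendritic cell markers had a median of −4.35, 9 fell, and their sum was 7.54 to 257.91 FPKM in cKO and 900.69 to 1565.42 in WT libraries. Of neutrophil markers 5 of 10 fell, of B-lymphoid markers 4 of 7, of megakaryocyte markers 7 of 7 and of stem and progenitor markers 6 of 7. Of all genes tested, 28.3% were lower. None of these lists had a marker at 0 in all libraries. The part of these shifts in the levels of the mitoribosomal protein genes was not tested. cKO 1, which had the lowest median of the members in its group, had a mean log2 erythroid level of 8.09, near the highest (8.10 in cKO 4). It also had the highest mean log2 neutrophil level, 7.09 against 2.44 to 5.72 in the other cKO libraries and 5.71 to 6.12 in WT. S100a9, a calcium-binding protein of neutrophils, was at 894.75 FPKM in cKO 1 and 7.57 to 157.68 in the other cKO libraries. Ngp, a granule protein, was at 317.58 and 2.41 to 66.44. The list was not uniform: 5 of 10 neutrophil markers were below every WT library in every cKO library, cKO 1 included. Among these, Mpo was at 277.33 FPKM in cKO 1, 391.92 in cKO 5 and at least 973.78 in WT libraries. Elane was at 183.65, 247.11 and at least 676.58 FPKM. WT 3 had the highest erythroid level (7.19) and the highest median of the members in the WT group.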

How the data were processed

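RNA-seq was performed on Lin− cells of 5 WT and 5 cKO mice. Per the submitters' processing notes, the tools were cutadapt 1.9.1, HISAT2 2.0.1 and HTSeq 0.6.1, with GRCm39 as the build. For each library the authors deposited gene FPKM with 2 decimals, after removing adapters and reads of quality under 20. The annotation, gene lengths and strand setting behind the FPKM are not given in the sources used here. All 10 value columns were used. Titles number the replicates, and p-values measure the spread between these samples.

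FPKM are not counts, so log2(FPKM + 0.1) was tested with limma 3.58.1 (lmFit, eBayes with trend) in R 4.3.3, and two-sided p-values were adjusted by Benjamini-Hochberg over the 18742 genes whose mean reached 0.1 FPKM. Calls used an adjusted p under 0.05, with or without a fold change of at least 2. The steps were tested on simulated data. On this scale the changes of low genes are understated. Lists are described by counts and medians.

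Depth was read from genes with a single transcript, where 95.0% to 96.0% of values of up to 20 fragments came out whole within 0.2 (40% by chance). A floor of 3 fragments, which covers counting error only, equals 0.159 to 0.218 FPKM for a gene of 1000 bp. Of the gene identifiers, 54749 (98.9%) were found in GENCODE M39, which gave coordinates, exons, starts and promoter sequences. Protein sequences were not analysed here, and 1 listed marker symbol was not matched.

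The members and lists were chosen with earlier results of these data known, and lists came from general knowledge. Named members were the 5 highest and 5 lowest fold changes (mean of at least 1 FPKM), the 5 highest and 5 lowest means, those called with the fold limit and those of known role, 32 in all. Other members named for overlap, spread or neighbours were chosen after their values were seen. Of other lists, up to 2 genes that rose and 2 that fell were named. S100a9 and Ngp, which did not pass, were named outside this rule. Alternatives were another pseudocount (0.01, 1), another filter (none, mean of 1 FPKM), median-ratio, equal-sum and quantile scaling, eBayes without the trend, a block for the replicate number, a covariate for Xist, only libraries with Xist at or below 1 FPKM, each library left out and changed membership. The split by exon overlap was added after seeing the data.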

Additional observations from a re-analysis of the deposited data

Results flagged for a closer look

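Among 72 groups of 5 libraries examined for a single library far from the others, 2 stood out, where chance gives about 3.6. Both concerned Mrpl30. Its level in cKO 5 was 35.93 FPKM, below the other cKO libraries at 38.86 to 39.79. Its level in WT 3 was 27.89 FPKM, above the other WT libraries at 23.09 to 24.02.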

How the results depend on the processing

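The median log2 fold change of the members stayed positive under all alternatives, at 0.24 to 0.39, and at 0.23 to 0.33 with each library left out (large subunit 0.23 to 0.32, small 0.26 to 0.38, difference −0.07 to −0.01). Leaving out a library gave 28 to 50 members higher and 2 to 4 lower by adjusted p alone (of all genes 14.1% to 19.2% were higher and 25.1% to 30.8% lower), and 1 to 1 and 0 to 0 with the fold limit. With a covariate for Xist 30 members were higher and 1 lower, against 10.9% and 21.5% of all genes. With only the libraries with Xist at or below 1 FPKM, 23 were higher and 1 lower, against 8.82% and 16.5% of all genes. The fold changes of the members were the same in both fits, as both compare the cKO libraries with WT 1 and WT 2 only. Among the 18 members without an exon overlap, 0 were called higher with the fold limit (4.6% of all genes). By adjusted p alone 12 were higher and 0 lower (16.7% and 28.3% of all genes), and the subunit difference was −0.14. Under quantile normalization that difference was −0.13, the median of all genes moved from −0.11 to 0.10 and that of the members was 0.34, with 60 of 78 above the median of all genes (70 as reported). The share of higher among all genes called by adjusted p was 37.2%, 46.4% under median-ratio scaling and 54.5% under quantile normalization. In the 250 bases before the start alone, members with a match numbered 4 for NRF1, 6 for ETS and 3 for YY1, as a shorter window is searched. The other causes were not tested.

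Signs were followed by gene for the named members only. Among these, they turned only where the fold change did not pass as reported. Over all 78 members, 66 were above 0 as reported and 62 with equal sums, so signs of other members turned as well. Mrpl48 turned to −0.010 with equal sums and ran from −0.025 to 0.069 with each library left out (negative without cKO 5). Mrps36 turned to 0.12 with the Xist covariate and in the libraries with low Xist, 0.092 under median-ratio and 0.0085 under quantile scaling, and ran from −0.065 to 0.043 with each library left out (positive without WT 3, WT 5, cKO 2 or cKO 3). Under median-ratio scaling Mrpl34 was at 0.059, Mrps12 at 0.040 and Mrpl10 at 0.030. With each library left out Mrpl10 ran from −0.16 to 0.0028 (positive without cKO 1). Under quantile normalization Mrpl58 was at 0.018 and Mrpl53 at 0.23.

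Whether the replicate numbers pair the samples is not settled. Over all genes tested, the correlation of same-numbered deviations was 0.12, 0.03, −0.01, −0.003 and 0.09 for replicates 1 to 5. The highest with a WT library of another number was −0.01, 0.06, 0.03, 0.07 and 0.01. Among the members, replicate 1 had the lowest median deviation and replicate 3 the highest in both groups. With the replicate block 43 members were higher and 4 lower by adjusted p alone, against 16.6% and 27% of all genes. The median of the members stayed at 0.28. Fragment numbers limit mainly Mrpl53 and Mrpl23.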
